A study of Mus musculus with 16 samples.

Results

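The CDK inhibitors of the mouse genome are 7 genes in 2 families, and they are described here across cultures of germline stem (GS) cells kept in low or high oxygen. The members were taken by symbol from the deposited table of 21924 protein-coding genes: Cdkn1a, Cdkn1b and Cdkn1c of the Cip/Kip family, and Cdkn2a, Cdkn2b, Cdkn2c and Cdkn2d of the Ink4 family. All 7 were in the table, and all 7 passed the filter on low values and were tested. GS cells are the cultured form of the spermatogonial stem cells of the testis. Feeder fibroblasts from mouse embryos, with the growth factors GDNF and FGF2, supported the cultures of all groups, and the GS cells had been established in 20% oxygen. RNA sequencing gave 16 libraries in 8 groups of 2, all named by line, genotype label and oxygen. On a background of 129 x C57BL/6 mixed, called the Hif1a line here, there were cells labelled Hif1a KO at 1% and at 20% oxygen and cells labelled wild type at 1% and at 20% oxygen. On C57BL/6, there were cells labelled Top1mt KO and Top1mt wild type, both at 1% oxygen only. DBA/2 wild type cells were kept at 1% and at 20% oxygen. AxCANCre, an adenovirus that carries Cre, was given to the cells labelled Hif1a KO on the day the low oxygen began. A control virus for the wild type cells is not described in the labels, so the label and the virus cannot be told apart. The series text gives 2 days in 1% oxygen. Libraries of the Hif1a line at 1% have 6d in their names, whereas 2d stands in the names of the Top1mt line, with no meaning given, so a difference in time and a difference in oxygen cannot be told apart in the Hif1a line. Nothing states that the 2 libraries of a group came from separate cultures, so p-values measure only the spread between these libraries.

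Cyclin-dependent kinases drive the cell through its cycle when they are bound by cyclins, and CDK inhibitors block them. Proteins of the Cip/Kip family bind cyclin and kinase together and act on most of the cell cycle kinases, whereas Ink4 proteins bind only CDK4 and CDK6 and keep D-type cyclins away from them. Cdkn1a (p21) is the best known target of p53, and Cdkn1b (p27) is controlled largely by its breakdown through Skp2 and Cks1b. Cdkn1c (p57) is imprinted and made from the maternal copy. Cdkn2a makes p16Ink4a and, from a start further upstream and in another reading frame, p19Arf, which holds back Mdm2 and so stabilises p53. Its neighbour Cdkn2b makes p15Ink4b, known as a target of TGF-beta, and both are known to be silenced by Polycomb. Cdkn2c (p18Ink4c) and Cdkn2d (p19Ink4d) are known from the testis, where male mice that lack both are infertile.

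In the GRCm38 (mm10) assembly with GENCODE M21 genes, Cdkn1a lies on the plus strand of chromosome 17 from 29090976 to 29100727. Cdkn1b lies on the plus strand of chromosome 6 from 134920401 to 134925513, and Cdkn1c on the minus strand of chromosome 7 from 143458339 to 143461050. Cdkn2a and Cdkn2b are neighbours on the minus strand of chromosome 4, from 89274471 to 89294653 and from 89306299 to 89311039. Cdkn2c is on the same chromosome and strand from 109660876 to 109667189, and Cdkn2d is on the minus strand of chromosome 9 from 21288410 to 21291407. The count for Cdkn2a is one value for the whole gene, so p16Ink4a and p19Arf cannot be told apart. Cdkn1a overlaps AC167363.2 and Cdkn1c overlaps Gm44732, both annotated on the opposite strand and neither in the table. The library kit keeps strand, but the sources used here do not give the strand setting of the counting, so reads of these overlaps are uncertain.

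The promoters of Cdkn1a, Cdkn2a and Cdkn2b are shown because these 3 genes had their highest group mean in the same group, the libraries labelled Hif1a KO at 1% oxygen. Each is the 250 bases before a start, from the RefSeq promoter table for GRCm38.p6, read 5′ to 3′ on the gene's own strand. RefSeq has 9 such entries for 6 of the 7 members, and those of Cdkn1a and Cdkn2a are 2 each, with starts 2790 and 12427 bases apart. The Cdkn1a windows are chr17:29090729-29090978 and chr17:29093519-29093768, both on the plus strand. The Cdkn2a windows are chr4:89294620-89294869, before the start known for p19Arf, and chr4:89282193-89282442, before the start known for p16Ink4a, both on the minus strand. The Cdkn2b window is chr4:89311033-89311282 on the minus strand. Capitals mark ACGTG and GCGTG (the core bound by hypoxia-inducible factor), GGGCGG (the GC box), TATAAA (the TATA box) and the p53 half-site consensus, each searched on both strands.
Cdkn1a upstream start: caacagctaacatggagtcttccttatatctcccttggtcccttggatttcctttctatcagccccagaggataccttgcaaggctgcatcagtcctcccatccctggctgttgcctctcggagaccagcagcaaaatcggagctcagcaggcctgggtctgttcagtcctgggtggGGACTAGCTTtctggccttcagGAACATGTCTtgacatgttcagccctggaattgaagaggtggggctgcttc
Cdkn1a downstream start: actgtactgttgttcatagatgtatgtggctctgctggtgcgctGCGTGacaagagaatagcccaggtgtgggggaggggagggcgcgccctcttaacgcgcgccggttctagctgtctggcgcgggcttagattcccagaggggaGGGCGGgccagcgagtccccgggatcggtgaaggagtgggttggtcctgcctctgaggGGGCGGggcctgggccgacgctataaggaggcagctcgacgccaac
Cdkn2a p19Arf start: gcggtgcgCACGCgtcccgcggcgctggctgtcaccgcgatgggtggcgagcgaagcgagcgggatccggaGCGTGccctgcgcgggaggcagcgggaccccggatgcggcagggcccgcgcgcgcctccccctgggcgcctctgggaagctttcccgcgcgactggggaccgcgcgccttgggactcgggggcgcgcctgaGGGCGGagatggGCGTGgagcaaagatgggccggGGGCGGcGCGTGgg
Cdkn2a p16Ink4a start: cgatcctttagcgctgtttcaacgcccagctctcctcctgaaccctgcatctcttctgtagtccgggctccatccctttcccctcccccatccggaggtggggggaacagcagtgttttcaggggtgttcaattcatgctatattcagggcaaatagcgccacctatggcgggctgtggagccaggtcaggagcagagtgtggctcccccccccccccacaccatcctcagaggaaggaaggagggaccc
Cdkn2b start: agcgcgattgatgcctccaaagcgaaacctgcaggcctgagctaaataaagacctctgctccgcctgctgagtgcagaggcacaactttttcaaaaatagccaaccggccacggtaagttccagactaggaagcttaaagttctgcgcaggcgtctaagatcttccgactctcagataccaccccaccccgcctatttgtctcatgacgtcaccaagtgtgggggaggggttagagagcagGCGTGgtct
The upstream Cdkn1a window holds 2 p53 half-sites and none of the other motifs. Of all 32851 promoter windows of this length, 7.13% held at least 1 half-site and 0.259% held 2 or more. The downstream Cdkn1a window holds 1 GCGTG and 2 GGGCGG. The p19Arf window holds 4 GCGTG and 2 GGGCGG, the p16Ink4a window holds none of the motifs, and the Cdkn2b window holds 1 GCGTG. Of all windows, 16.6% held ACGTG, 28.2% held GCGTG and 38.6% held at least 1 of these cores. The GC box occurred in 32.7% of them and the TATA box in 12.4%. No matches shared letters in the 5 windows shown. The matches are letters in a window, and binding there was not measured.

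Each library had from 11942104 to 25659895 reads on these genes, recovered from the steps in the deposited CPM values (reads scaled to a common library total), so that 1 read stood for 0.0390 to 0.0837 CPM. Chi-square per gene between the 2 libraries of a group, where 1 is counting error alone, was lowest in Hif1a wild type at 20% oxygen (1.79) and highest in Hif1a wild type at 1% (7.60). The Hif1a transcript was not lower in the libraries labelled Hif1a KO: it had 618 and 593 CPM in libraries labelled KO at 1% oxygen, against 251 and 251 in wild type, and 139 and 142 in those labelled KO at 20%, against 116 and 118 in wild type. The log2 differences were 1.27 ± 0.06 (SE, limma adjusted p = 1.0e-12) at 1% and 0.26 ± 0.06 (adjusted p = 0.0034) at 20%. Hif1a overlaps Gm49321, a protein-coding gene annotated on the same strand and also in the table, so reads of this overlap are uncertain. A gene's total count does not show a deletion of some exons. The sources used here do not give which exons were to be deleted, so these groups are called libraries labelled Hif1a KO throughout. Top1mt had 9.99 and 10.96 CPM in libraries labelled Top1mt KO, against 32.8 and 34.8 in Top1mt wild type (log2 difference -1.60 ± 0.07, limma adjusted p = 1.5e-12).

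The cultures were mixtures of germ cells and feeder cells. All 24 of 24 feeder fibroblast markers and all 16 of 16 germ cell markers were at 1 CPM or more in both libraries of each group. The feeder markers summed to 63366 ± 1273 CPM in libraries labelled Hif1a KO at 1% oxygen, against 33009 ± 5468 in wild type (SD, n = 2 each). At 20% they summed to 17955 ± 2172 CPM in libraries labelled Hif1a KO and 12206 ± 697 in wild type. In the Top1mt line they summed to 42870 ± 648 CPM in libraries labelled KO and 22325 ± 25.8 in wild type. In DBA/2 the sums were 6983 ± 478 CPM at 1% and 8380 ± 1321 at 20%, with ranges of 6645 to 7321 and 7446 to 9314 that do not overlap. The germ cell markers ran the other way with the KO labels of the Hif1a and Top1mt lines. They summed to 1971 ± 87.7 CPM in libraries labelled Hif1a KO at 1%, against 4422 ± 211 in wild type, to 3747 ± 196 against 4472 ± 56.1 at 20%, and to 2874 ± 7.45 in libraries labelled Top1mt KO, against 3844 ± 36.5 in wild type. In DBA/2 they were 5286 ± 29.4 CPM at 1% and 5408 ± 133 at 20%. Markers of testis somatic cells summed to between 24.6 and 56.96 CPM per library, and leukocyte markers to between 13.6 and 42.5 CPM. Of the 10 somatic markers, Fshr, Cyp17a1, Hsd3b1 and Insl3 each had 0 reads in both libraries of at least 1 group. Wt1 had 8.59 to 29.3 CPM per library, Sox9 6.70 to 19.9, Star 3.82 to 6.20 and Gata4 0.513 to 5.40. Amh and Cyp11a1 had medians of 0.252 and 0.277 CPM. In bulk RNA, fewer cells of a type and less RNA per cell cannot be told apart. The part that the feeder and germ cell shares have in the differences given next was not tested.

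**Figure D1:**
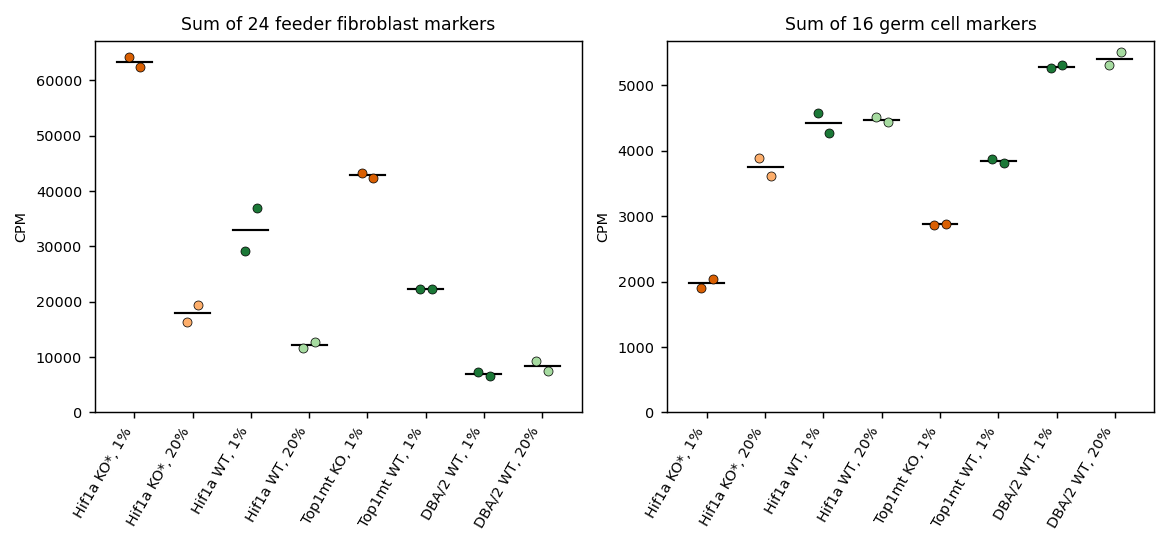
Summed CPM of 24 feeder fibroblast markers (left) and 16 germ cell markers (right) in each library (points, 2 per group), with the mean of the group as a black line; KO* marks libraries labelled Hif1a KO. The feeder sum was highest in libraries labelled Hif1a KO at 1% oxygen (63366 CPM) and lowest in DBA/2 at 1% (6983 CPM), and the germ cell sum was lowest in libraries labelled Hif1a KO at 1% (1971 CPM).

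Per kilobase of exon, Cdkn2a and Cdkn1a were the most abundant CDK inhibitor transcripts, with medians over the 16 libraries of 63.4 and 62.4 CPM per kb. Cdkn1c followed at 27.3 CPM per kb and Cdkn2b at 21.4. Cdkn2d had 7.40, Cdkn1b 2.66 and Cdkn2c 0.942 CPM per kb, and these 3 held the fifth, sixth and seventh places in each of the 16 libraries. Cdkn1a was first in 8 libraries, those of the Top1mt line and of the Hif1a line at 1% oxygen, and Cdkn2a in the other 8. Cdkn1a also varied most between groups: its highest group mean was 6.63 times its lowest, against 4.74 times for Cdkn1b, 3.63 for Cdkn2b, 2.77 for Cdkn2d, 2.49 for Cdkn1c, 2.20 for Cdkn2a and 1.68 for Cdkn2c. Cdkn2c rested on 26 to 65 reads per library, so its values carry a large counting error, whereas Cdkn1a rested on 1819 to 19349.

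**Figure D2:**
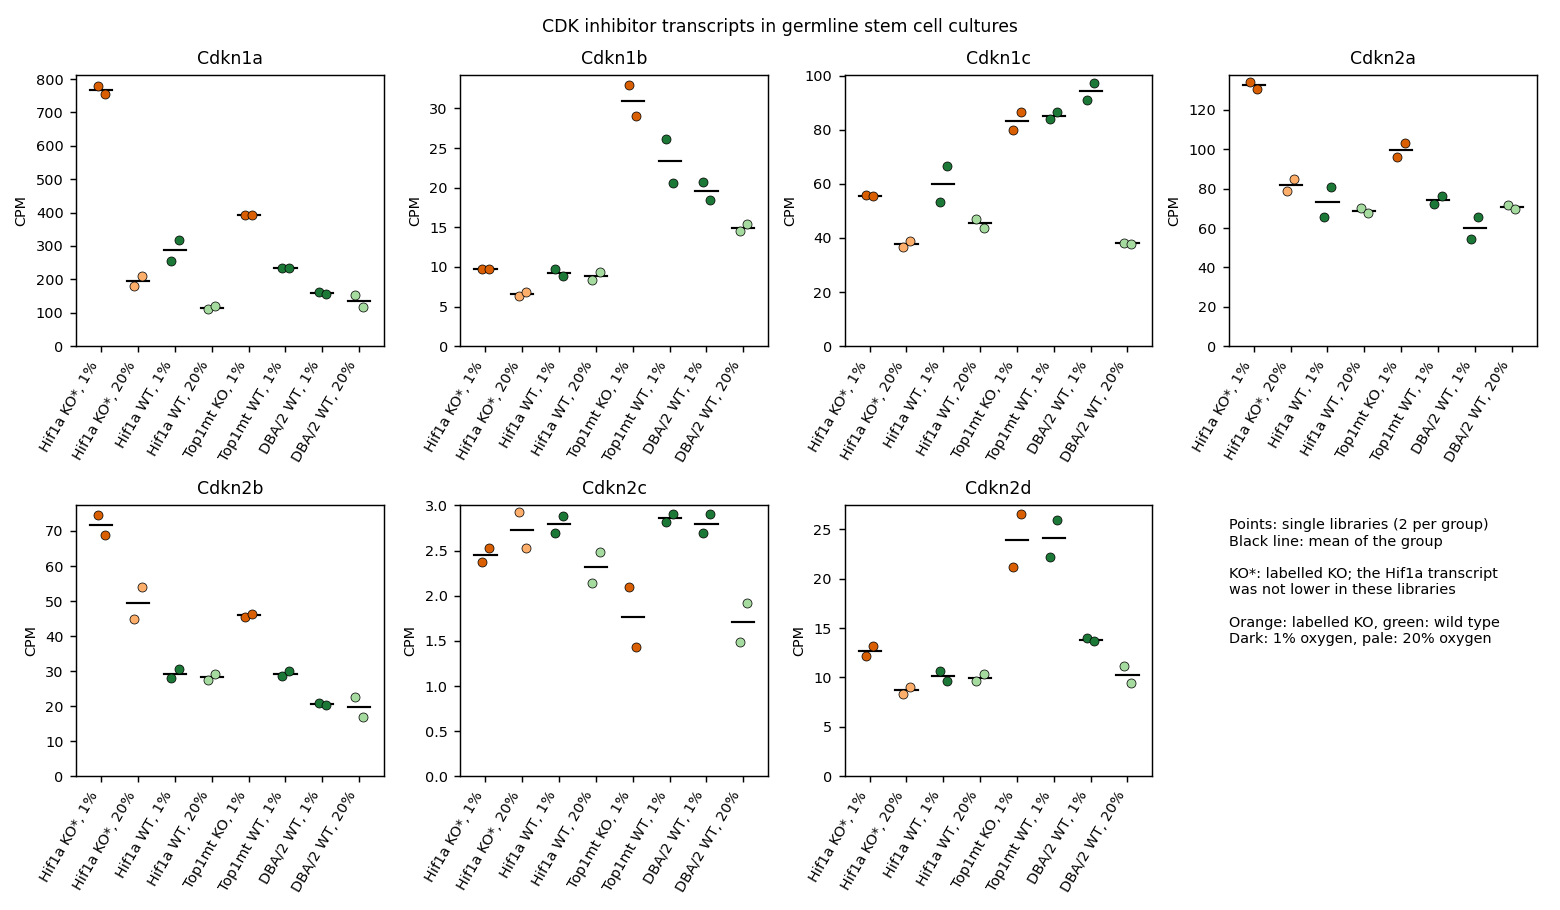
CPM of each CDK inhibitor in each of the 16 libraries (points), with the group mean as a black line, and a scale of its own for each gene. Cdkn1a, Cdkn2a and Cdkn2b reached their highest values in libraries labelled Hif1a KO at 1% oxygen (767, 132 and 71.7 CPM on average), Cdkn1b and Cdkn2d in the Top1mt line, and Cdkn1c in DBA/2 at 1% (94.2 CPM).

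Cdkn1a, the p53 target, had 780.0 and 754 CPM in libraries labelled Hif1a KO at 1% oxygen and 179 and 211 at 20%. Hif1a wild type had 255 and 319 CPM at 1% and 111 and 120.1 at 20%. Libraries labelled KO lay above wild type at each oxygen level, and 1% above 20% within each label, with no overlap. The log2 difference between 1% and 20% oxygen was 1.97 ± 0.10 (SE, limma adjusted p = 1.0e-12) in libraries labelled KO and 1.30 ± 0.10 (adjusted p = 3.1e-09) in wild type. Between libraries labelled KO and wild type it was 1.42 ± 0.10 (adjusted p = 1.7e-10) at 1% and 0.74 ± 0.10 (adjusted p = 6.2e-05) at 20%. Cdkn1a also rose with the Top1mt KO label, with 394 and 394 CPM in libraries labelled KO against 235 and 233 in wild type (0.75 ± 0.10, adjusted p = 3.4e-06). In DBA/2 it had 163 and 155 CPM at 1% and 154 and 116 at 20%, ranges that nearly touch but do not overlap, with a log2 difference of 0.25 ± 0.10 (adjusted p = 0.043). Over the 8 groups, only the ranges of DBA/2 at 20% and Hif1a wild type at 20%, the 2 lowest, overlapped between neighbours in the order of means.

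Cdkn1a was also set against the feeder markers, which differed between the same groups, and against the germ cell markers. Per 1000 CPM of feeder markers, it had 12.1 CPM in libraries labelled Hif1a KO at 1% oxygen and 8.70 in wild type, and 10.9 in libraries labelled KO at 20% and 9.49 in wild type. In the Top1mt line it had 9.19 CPM per 1000 in libraries labelled KO, below the 10.5 of wild type. In DBA/2 it had 22.8 per 1000 at 1% and 16.05 at 20%. Against 1000 CPM of germ cell markers, it had 389.7 CPM in libraries labelled Hif1a KO at 1% and 65.3 in wild type. At 20% these germ cell ratios were 52.3 in libraries labelled KO and 25.9 in wild type. Libraries labelled Top1mt KO had 137.04, above the 60.8 of wild type, so this ratio ran opposite to the feeder ratio there. The germ cell ratio in DBA/2 was 29.17 to 31.02 at 1% and 21.05 to 28.99 at 20%. The 2 libraries of Hif1a wild type at 1%, with 255 and 319 CPM of Cdkn1a, differed likewise in their feeder sums, 29142 and 36876 CPM. What part the cell shares had in the Cdkn1a differences was not tested.

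Cdkn1b, whose protein p27 is broken down through Skp2, set the lines apart more than the oxygen levels. It had 33.0 and 29.0 CPM in libraries labelled Top1mt KO against 26.1 and 20.6 in Top1mt wild type, and 20.7 and 18.5 in DBA/2 at 1% against 14.5 and 15.4 at 20%. In the Hif1a line it had 9.68 and 9.78 CPM in libraries labelled KO at 1%, 6.28 and 6.80 in those labelled KO at 20%, 9.77 and 8.80 in wild type at 1% and 8.33 and 9.32 in wild type at 20%. All 8 libraries of the Hif1a line lay below all 8 of the others. At 1% oxygen, Hif1a wild type was lower than C57BL/6 wild type by a log2 difference of -1.24 ± 0.11 (limma adjusted p = 1.8e-08). Their library names carry 6d and 2d, so line and time mark cannot be told apart there. At 20%, Hif1a wild type was lower than DBA/2 by -0.70 ± 0.11 (adjusted p = 4.7e-05). Cdkn1b rose at 1% oxygen in DBA/2 (0.37 ± 0.11, adjusted p = 0.0095) and in libraries labelled Hif1a KO (0.51 ± 0.11, adjusted p = 3.8e-04), while Hif1a wild type gave 0.07 ± 0.11 (adjusted p = 0.65). With the Hif1a KO label it fell at 20% (-0.38 ± 0.11, adjusted p = 0.020), and at 1% its difference was 0.06 ± 0.11 (adjusted p = 0.62). With the Top1mt KO label it rose (0.40 ± 0.11, adjusted p = 0.0051). In order of group means, the neighbours whose ranges overlapped were Top1mt wild type and DBA/2 at 1%, and, in the Hif1a line, wild type at 1% with both libraries labelled KO at 1% and wild type at 20%.

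Cdkn1c, the imprinted member, had its largest oxygen difference in DBA/2, with 91.1 and 97.4 CPM at 1% and 38.3 and 37.8 at 20%. The libraries at 1% were all above those at 20%, with a log2 difference of 1.29 ± 0.08 (limma adjusted p = 7.3e-11). In libraries labelled Hif1a KO it had 55.8 and 55.4 CPM at 1% and 36.8 and 39.0 at 20%, and in Hif1a wild type 53.1 and 66.5 at 1% and 47.2 and 43.6 at 20%. Both pairs were apart, with log2 differences of 0.54 ± 0.08 (adjusted p = 3.0e-06) in libraries labelled KO and 0.38 ± 0.08 (adjusted p = 4.3e-04) in wild type. In the Top1mt line, 79.8 and 86.7 CPM in libraries labelled KO overlapped 83.9 and 86.5 in wild type (-0.03 ± 0.08, adjusted p = 0.74, 95% interval -0.20 to 0.13). The KO label of the Hif1a line gave -0.25 ± 0.08 (adjusted p = 0.025) at 20% and -0.10 ± 0.08 (adjusted p = 0.28) at 1%. That last difference turned to 0.18 (adjusted p = 0.045) when libraries were scaled by the median of ratios, to 0.13 with edgeR and to 0.17 with DESeq2, and it was -0.25 (adjusted p = 0.0038) without wild type replicate 1. Per 1000 CPM of feeder markers, Cdkn1c had 13.5 CPM in DBA/2 at 1% oxygen and 4.59 at 20%, and per 1000 CPM of germ cell markers 17.3 to 18.3 at 1% and 6.87 to 7.20 at 20%. In the Hif1a line the feeder ratio ran the other way. In libraries labelled KO, Cdkn1c had 0.877 CPM per 1000 at 1% and 2.12 at 20%, and in wild type 1.81 and 3.73. The germ cell ratio there was higher at 1%. Per 1000 CPM of germ cell markers, libraries labelled KO had 28.2 at 1% and 10.1 at 20%, and wild type 13.6 and 10.1. In order of group means, DBA/2 at 1% came first, followed by both groups of the Top1mt line, which overlapped. Libraries labelled Hif1a KO at 1% overlapped wild type at 1%, and DBA/2 at 20% overlapped libraries labelled Hif1a KO at 20%, in the last places.

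Cdkn2a, the gene of p16Ink4a and p19Arf, lay between 54.6 and 80.9 CPM in all wild type libraries. It had 65.5 and 80.9 CPM in Hif1a wild type at 1% oxygen and 70.0 and 67.4 at 20%, 72.2 and 76.5 in Top1mt wild type, and 54.6 and 65.7 in DBA/2 at 1% against 71.6 and 69.7 at 20%. The libraries labelled Hif1a KO had 134 and 131 CPM at 1% and 79.0 and 85.1 at 20%, and those labelled Top1mt KO had 95.9 and 103. At 1% oxygen the libraries labelled KO of both lines lay above all wild type libraries. The log2 difference between libraries labelled Hif1a KO and wild type was 0.85 ± 0.08 (limma adjusted p = 1.6e-08) at 1% and 0.25 ± 0.08 (adjusted p = 0.037) at 20%, and with the Top1mt KO label it was 0.42 ± 0.08 (adjusted p = 2.8e-04). Between oxygen levels, Cdkn2a rose at 1% in libraries labelled Hif1a KO (0.68 ± 0.08, adjusted p = 3.1e-07) and fell in DBA/2 (-0.23 ± 0.08, adjusted p = 0.023). Hif1a wild type gave 0.08 ± 0.08 (adjusted p = 0.42), and 0.23 (adjusted p = 0.024) without its replicate 1 at 1%. In order of group means, the labelled KO groups and Top1mt wild type took the first 4 places, and the ranges of the groups from Top1mt wild type down to Hif1a wild type at 20% overlapped their neighbours.

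Cdkn2b, the TGF-beta target beside Cdkn2a, had 74.6 and 68.9 CPM in libraries labelled Hif1a KO at 1% and 44.9 and 54.0 at 20%. Hif1a wild type had 28.0 and 30.6 CPM at 1% and 27.4 and 29.4 at 20%, so the labels were apart at each oxygen level and the wild type ranges overlapped between oxygen levels. The log2 difference with the KO label was 1.26 ± 0.10 (limma adjusted p = 1.0e-09) at 1% and 0.77 ± 0.10 (adjusted p = 5.0e-05) at 20%. Libraries labelled Top1mt KO had 45.4 and 46.5 CPM, above the 28.6 and 30.1 of wild type (0.63 ± 0.10, adjusted p = 3.0e-05). It rose at 1% oxygen in libraries labelled Hif1a KO (0.53 ± 0.10, adjusted p = 8.7e-05). It gave 0.04 ± 0.10 in Hif1a wild type (adjusted p = 0.74, 95% interval -0.17 to 0.26), and 0.08 ± 0.10 in DBA/2 (adjusted p = 0.53), where 20.96 and 20.5 CPM at 1% lay between the 22.6 and 16.9 of 20%. In order of group means, the 3 labelled KO groups came first, then Top1mt and Hif1a wild type with overlapping neighbours, and both DBA/2 groups last.

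Cdkn2a and Cdkn2b were also set against the feeder markers. Per 1000 CPM of feeder markers, Cdkn2a had 2.09 CPM in libraries labelled Hif1a KO at 1% oxygen and 2.22 in wild type, and 2.33 in libraries labelled Top1mt KO and 3.33 in wild type. Cdkn2b had 1.13 CPM per 1000 in libraries labelled Hif1a KO at 1% and 0.895 in wild type, and 1.07 in libraries labelled Top1mt KO and 1.32 in wild type. At 20%, Cdkn2a had 4.59 in libraries labelled Hif1a KO and 5.64 in wild type, and Cdkn2b 2.75 in libraries labelled KO and 2.32 in wild type. Per 1000 CPM of germ cell markers, Cdkn2a had 67.3 CPM in libraries labelled Hif1a KO at 1% and 16.6 in wild type, and 34.7 in libraries labelled Top1mt KO and 19.3 in wild type. Cdkn2b had 36.5 CPM per 1000 of germ cell markers in libraries labelled Hif1a KO at 1% and 6.64 in wild type, and 15.98 in libraries labelled Top1mt KO and 7.64 in wild type. The feeder and germ cell ratios thus differ in size, and for some pairs in direction.

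The remaining Ink4 genes are Cdkn2d and Cdkn2c. Cdkn2d had 21.2 and 26.5 CPM in libraries labelled Top1mt KO and 22.2 and 26.0 in Top1mt wild type, above the 8.37 to 14.02 CPM of all libraries of the other lines. DBA/2 had 14.02 and 13.6 CPM at 1% and 11.1 and 9.43 at 20%, apart by 0.40 ± 0.12 (limma adjusted p = 0.0063). Libraries labelled Hif1a KO had 12.2 and 13.2 at 1% and 8.37 and 9.01 at 20%, apart by 0.50 ± 0.12 (adjusted p = 6.3e-04), while Hif1a wild type had 10.6 and 9.61 at 1% and 9.62 and 10.3 at 20%, which overlap. C57BL/6 wild type was above DBA/2 at 1% by 0.75 ± 0.12 (adjusted p = 1.4e-05), and Hif1a wild type below C57BL/6 by -1.17 ± 0.12 (adjusted p = 5.3e-08). With the Hif1a KO label Cdkn2d rose at 1% (0.30 ± 0.12, adjusted p = 0.025), and at 20% it gave -0.18 ± 0.12 (adjusted p = 0.28). Cdkn2c ranged only from 1.43 to 2.93 CPM. It had 2.69 and 2.90 CPM in DBA/2 at 1% against 1.49 and 1.92 at 20% (0.49 ± 0.15, adjusted p = 0.0069), and 2.10 and 1.43 CPM in libraries labelled Top1mt KO against 2.82 and 2.90 in wild type (-0.49 ± 0.15, adjusted p = 0.0068). In the Hif1a line, none of its oxygen or label differences passed the threshold. In order of group means, only Hif1a wild type at 20% and libraries labelled Top1mt KO did not overlap as neighbours for Cdkn2c, while for Cdkn2d the overlaps were those within the Top1mt line and between DBA/2 at 20% and the Hif1a wild type groups.

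The first question the design addresses is what 1% oxygen does to wild type GS cells. In DBA/2, Cdkn1a, Cdkn1b, Cdkn1c, Cdkn2c and Cdkn2d rose, Cdkn2a fell, and Cdkn2b did not pass the threshold. Thus 5 of 7 members were called higher and 1 lower, where 57.4% of all 14841 genes tested were called, 31.8% higher and 25.5% lower. The median log2 difference was 0.37 over the members and 0.04 over all genes. In Hif1a wild type, 2 of 7 members rose at 1%, Cdkn1a and Cdkn1c, and none fell, where 53.1% of all genes were called, 18.4% higher and 34.6% lower, with medians of 0.08 over the members and -0.09 over all genes. In libraries labelled Hif1a KO, 6 of 7 members rose, all but Cdkn2c, and none fell, where 79.9% of all genes were called, 25.2% higher and 54.7% lower, with medians of 0.53 over the members and -0.29 over all genes. Of the 24 feeder markers, 23 rose and none fell at 1% in libraries labelled Hif1a KO, 18 rose and 2 fell in Hif1a wild type, and 4 rose and 14 fell in DBA/2. Of the members that rose in DBA/2, only Cdkn1c kept its call in every alternative. The Cdkn1a call was lost without DBA/2 at 20% replicate 2 (adjusted p = 0.723), without DBA/2 at 1% replicate 1 (0.187) or replicate 2 (0.071), and with edgeR (0.107) and DESeq2 (0.244). The Cdkn2a call was lost without replicate 1 (0.095) or 2 (0.051) at 20% or replicate 1 at 1% (0.377), that of Cdkn1b without replicate 1 at 20% (0.066) or at 1% (0.103), that of Cdkn2c without replicate 1 at 20% (0.091), and that of Cdkn2d without replicate 2 at 20% (0.092). Cdkn2b was called higher without replicate 1 at 20% (0.28, adjusted p = 0.031).

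**Figure D3:**
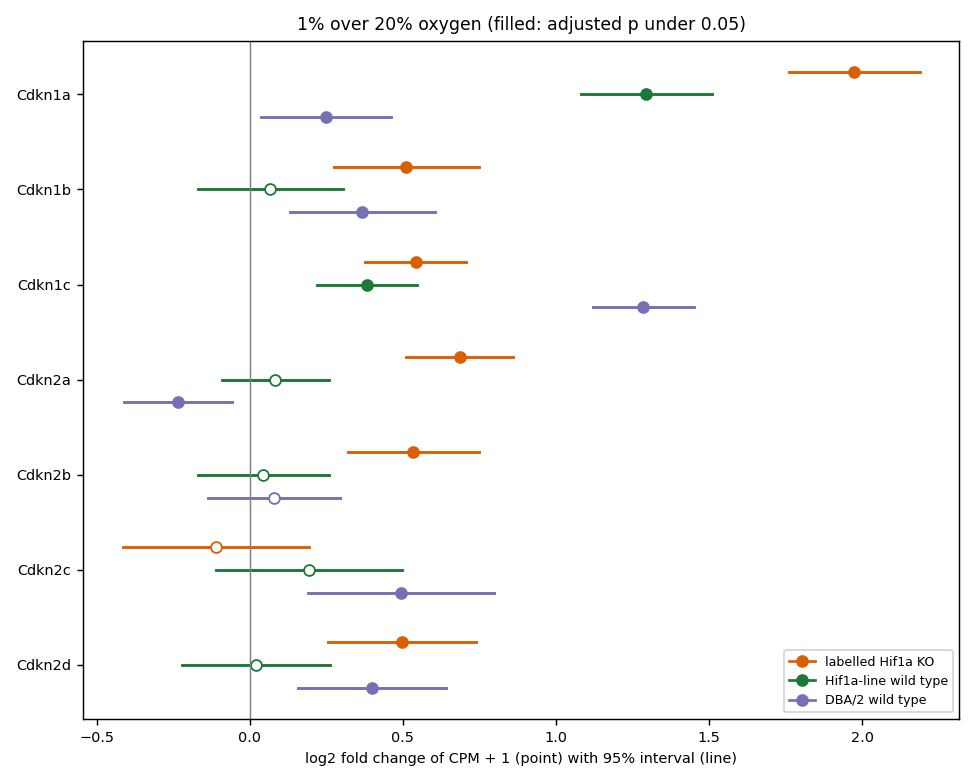
Log2 fold change of CPM + 1 between 1% and 20% oxygen for each member (points, with 95% intervals as lines) in libraries labelled Hif1a KO, Hif1a wild type and DBA/2 wild type; filled points have a limma adjusted p under 0.05. Cdkn1a changed most in libraries labelled Hif1a KO (1.97) and Cdkn1c in DBA/2 (1.29).

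Whether oxygen acted alike in the wild type lines was tested as the difference of their responses. Cdkn1a responded more in the Hif1a line than in DBA/2, by 1.05 ± 0.14 (limma adjusted p = 9.9e-06), and Cdkn1c responded less, by -0.90 ± 0.11 (adjusted p = 2.7e-06). Cdkn2a gave 0.32 ± 0.12 (adjusted p = 0.035), a call that was lost without any 1 of 6 of the 8 libraries, among them DBA/2 at 1% replicate 1 (0.223) and Hif1a wild type at 1% replicate 2 (0.218). Cdkn2d gave -0.38 ± 0.16 (adjusted p = 0.065), and passed without DBA/2 at 20% replicate 1 (0.038) or Hif1a wild type at 1% replicate 1 (0.048). In all, 2 of 7 members were called higher and 1 lower, where 46% of all genes were called, 15.1% higher and 30.9% lower. The medians were -0.30 over the members and -0.13 over all genes. Of the feeder markers, 19 of 24 responded more in the Hif1a line and 3 less (median 1.47), and of the germ cell markers 6 of 16 responded more and 3 less. The lines also differ in background and in the time marks of their library names, which cannot be told apart from the line. At 20% oxygen, Hif1a wild type was higher than DBA/2 in Cdkn2b (0.51 ± 0.10, adjusted p = 4.0e-04) and Cdkn1c (0.25 ± 0.08, adjusted p = 0.014) and lower in Cdkn1b, so 2 of 7 were higher and 1 lower, where 48.9% of all genes were called, 26.4% higher and 22.6% lower. In that comparison 15 of 24 feeder markers were higher and 1 lower, and 3 of 16 germ cell markers were higher and 11 lower. Leaving out DBA/2 at 20% replicate 2 (0.061) or Hif1a wild type at 20% replicate 1 (0.130) ended the call of Cdkn1c there, and leaving out the first of these made Cdkn1a lower (-0.41, adjusted p = 0.0022).

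At 1% oxygen, C57BL/6 wild type, that is Top1mt wild type, was above DBA/2 in 4 of 7 members and below in none, where 61.8% of all genes were called, 28.9% higher and 32.9% lower. Of the feeder markers 21 of 24 were higher in C57BL/6 and 2 lower (median 1.49), and of the germ cell markers none of 16 was higher and 8 were lower. The 4 members higher in C57BL/6 were Cdkn2d (0.75), Cdkn1a (0.55 ± 0.10, limma adjusted p = 1.0e-04), Cdkn2b (0.48 ± 0.10, adjusted p = 4.3e-04) and Cdkn2a (0.31 ± 0.08, adjusted p = 0.0037). With 1 library left out, the Cdkn2a difference was 0.18 to 0.44. Cdkn1b gave 0.24 ± 0.11 (adjusted p = 0.077), and passed when libraries were scaled by the median of ratios (0.30, adjusted p = 0.028), with edgeR (0.32, adjusted p = 0.013) with DESeq2 (0.32, adjusted p = 0.037) and without C57BL/6 replicate 2 (0.40, adjusted p = 0.013). Hif1a wild type was below C57BL/6 in Cdkn1b, Cdkn2d and Cdkn1c (-0.51 ± 0.08, adjusted p = 1.5e-05) and above it in Cdkn1a (0.29 ± 0.10, adjusted p = 0.021), so 1 of 7 was higher and 3 lower, where 58.1% of all genes were called, 24.3% higher and 33.9% lower. There 18 of 24 feeder markers were higher and 3 lower, and 9 of 16 germ cell markers higher and 1 lower. The time marks of these library names, 6d in the Hif1a line and 2d in C57BL/6, cannot be told apart from the line. The call of Cdkn1a there was lost without either C57BL/6 library (0.073 and 0.084) or without Hif1a wild type at 1% replicate 2 (0.330).

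With the Hif1a KO label at 1% oxygen, Cdkn1a, Cdkn2b, Cdkn2a and Cdkn2d rose and no member fell. Thus 4 of 7 were called higher, where 77.4% of all genes were called, 28.3% higher and 49.1% lower, and the medians were 0.30 over the members and -0.21 over all genes. In the same comparison 24 of 24 feeder markers rose (median 0.905) and 16 of 16 germ cell markers fell (median -1.14). Of all genes called in this comparison, 36.6% were higher in CPM and 54.2% when libraries were scaled by the median of ratios. Under that scaling Cdkn1b was called as well (0.32, adjusted p = 0.016), as it was with edgeR (0.33, adjusted p = 0.040) and DESeq2 (0.36, adjusted p = 0.038). The call of Cdkn2d was lost without replicate 2 of wild type (0.138) or of the libraries labelled KO (0.135), whereas the calls of Cdkn1a, Cdkn2a and Cdkn2b held in every alternative run. At 20% oxygen, Cdkn2b, Cdkn1a and Cdkn2a rose and Cdkn1b and Cdkn1c fell, so 3 of 7 were higher and 2 lower, where 22.4% of all genes were called, 12.9% higher and 9.55% lower. There 21 of 24 feeder markers rose (median 0.49) and 14 of 16 germ cell markers fell (median -0.24). The calls of Cdkn1a and Cdkn2b held in every alternative run. Those of Cdkn1b, Cdkn1c and Cdkn2a were each lost without 3 of the 4 libraries, with adjusted p of 0.053 to 0.152, 0.056 to 0.209 and 0.105 to 0.229, and those of Cdkn1b and Cdkn1c with edgeR (0.064 and 0.059) and DESeq2 (0.076 and 0.062).

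The interaction asks whether the response to 1% oxygen differed between libraries labelled Hif1a KO and wild type. It was positive for Cdkn1a (0.68 ± 0.14, limma adjusted p = 5.1e-04), Cdkn2a (0.60 ± 0.12, adjusted p = 2.7e-04), Cdkn2b (0.49 ± 0.15, adjusted p = 0.0073), Cdkn2d (0.48 ± 0.16, adjusted p = 0.018) and Cdkn1b (0.44 ± 0.16, adjusted p = 0.023). These were 5 of 7 members, with none negative, where 58% of all genes were called, 19% higher and 39% lower. The medians were 0.48 over the members and -0.17 over all genes, and 32.8% of all genes called were higher in CPM against 61.4% with median-of-ratios scaling. Among the feeder markers 19 of 24 were positive and none negative (median 0.48), and among the germ cell markers 16 of 16 were negative (median -0.87). Cdkn1c gave 0.16 ± 0.11 (adjusted p = 0.23), 0.43 (adjusted p = 0.0035) under that scaling, and 0.32 (adjusted p = 0.0064) without Hif1a wild type at 1% replicate 2. The calls of Cdkn1b and Cdkn2d were each lost without any of 4 libraries, Hif1a wild type at 20% replicate 2 (0.094 and 0.063), Hif1a wild type at 1% replicate 2 (0.070 and 0.056), labelled KO at 20% replicate 1 (0.073 and 0.059) and labelled KO at 1% replicate 2 (0.0525 and 0.063), and that of Cdkn2b without labelled KO at 20% replicate 1 (0.055). The comparisons in the Hif1a line share their 8 libraries, so their counts are not independent of each other.

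With the Top1mt KO label at 1% oxygen, Cdkn1a, Cdkn2b, Cdkn2a and Cdkn1b rose and Cdkn2c fell. Thus 4 of 7 were higher and 1 lower, where 58.4% of all genes were called, 25.2% higher and 33.2% lower, with medians of 0.40 over the members and -0.04 over all genes. Here too 24 of 24 feeder markers rose (median 0.92), and 15 of 16 germ cell markers fell (median -0.46). The calls of Cdkn1a, Cdkn2a and Cdkn2b held in every alternative run. That of Cdkn1b was lost without wild type replicate 2 (0.131) or labelled KO replicate 1 (0.074), and that of Cdkn2c without labelled KO replicate 2 (0.120) and with DESeq2 (0.083).

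**Figure D4:**
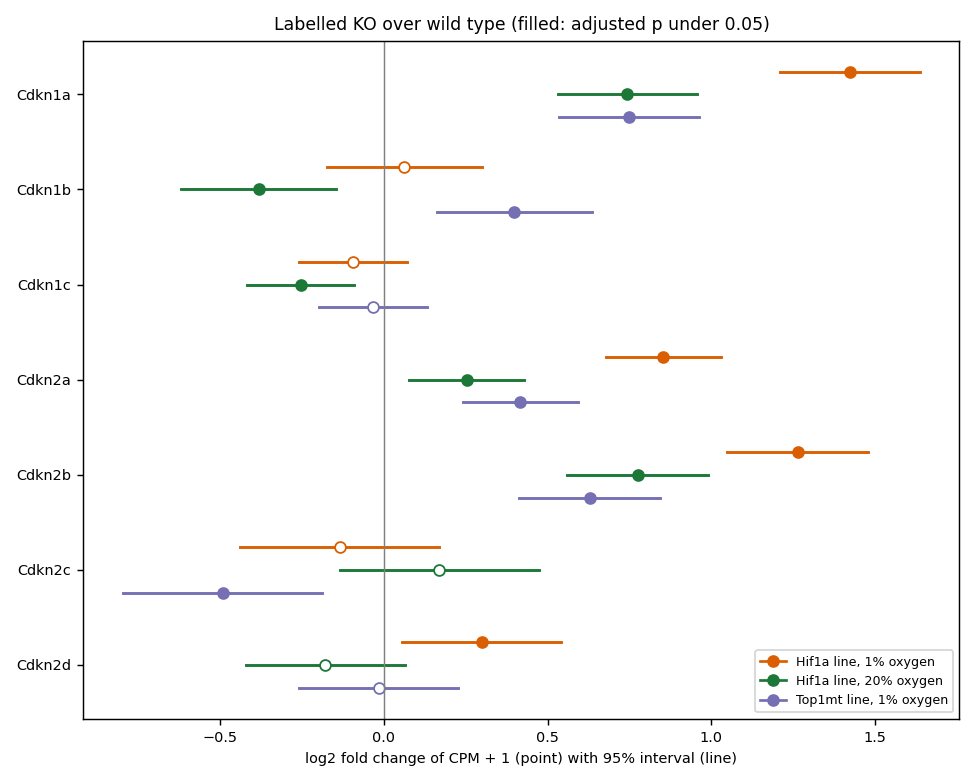
Log2 fold change of CPM + 1 between libraries labelled KO and wild type for each member (points, with 95% intervals as lines), in the Hif1a line at 1% and 20% oxygen and in the Top1mt line at 1%; filled points have a limma adjusted p under 0.05. Cdkn1a, Cdkn2a and Cdkn2b are filled and to the right of 0 in all 3 comparisons.

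The rest of the cell cycle machinery was read from lists of genes, given by counts and medians. In the Hif1a line at 1% oxygen, 9 of 9 proliferation genes fell with the KO label (median -1.01), among them the replication helicase genes Mcm3 (-0.995 ± 0.04, limma adjusted p = 5.8e-13) and Mcm7 (-1.001 ± 0.04, adjusted p = 6.3e-13), and Top2a (-1.24 ± 0.05, adjusted p = 6.3e-13). Of 9 cyclins, 3 rose and 5 fell (median -0.67): the D-type cyclin gene Ccnd1 rose by 1.82 ± 0.10 (adjusted p = 3.7e-12), while the S and M phase cyclin genes Ccna2 (-1.24 ± 0.06, adjusted p = 3.5e-12) and Ccnb1 (-1.14 ± 0.06, adjusted p = 2.0e-12) fell. Of 4 CDKs, 1 rose (Cdk6, 0.61) and 2 fell (Cdk2, -0.68, and Cdk1, -0.53), and of 11 pocket protein and E2F genes, 1 rose and 9 fell (median -0.69), with E2f1 at -0.64 and Rbl1 at -0.92. Of 9 genes of the ubiquitin ligases that break down p21 and p27, 1 rose and 6 fell (median -0.47), among them Skp2 (-0.87 ± 0.06, adjusted p = 1.6e-10) and Dtl (-1.13 ± 0.07, adjusted p = 1.3e-11). Of all genes tested, 28.3% rose and 49.1% fell, with a median of -0.21. With median-of-ratios scaling, 2 of the 4 CDKs rose and 2 fell, with a median of 0.007 against -0.27 in CPM. With median-of-ratios scaling the medians of these lists were -0.73 for proliferation, -0.59 for cyclins, -0.42 for pocket proteins and E2F and -0.18 for the ligases. Mki67, Pcna and the Mcm genes are made by any dividing cell, and the germ cell sum was lower in these libraries (1971 against 4422 CPM), whose part in these counts was not tested.

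Genes of the p53 axis, that is p53, its regulators and its targets, were counted for the Hif1a KO label at 1% in the same way. So were listed regulators upstream of the CDK inhibitors. Both were set against the 28.3% of all genes that rose and the 49.1% that fell. Of 13 genes of the p53 axis, 10 rose and 2 fell (median 0.95), and the smallest adjusted p were those of the p53 targets Ccng1 (1.71 ± 0.06, limma adjusted p = 3.6e-13), Plk2 (1.221 ± 0.07, adjusted p = 2.0e-11), Phlda3 (1.54 ± 0.10, adjusted p = 7.7e-11) and Btg2 (0.95 ± 0.07, adjusted p = 1.6e-10). Of 12 listed Polycomb regulators of the Ink4 locus, none rose and 11 fell (median -0.55), a count that includes Kdm6b, a demethylase that removes the Polycomb mark (-0.21 ± 0.05, adjusted p = 0.0011). Among those that fell were Cbx2 at -1.17 ± 0.05 (adjusted p = 7.1e-13), Cbx7 at -0.95 ± 0.05 (adjusted p = 1.1e-11) and Ezh2, the methyltransferase, at -0.97 ± 0.07 (adjusted p = 3.8e-10). With median-of-ratios scaling 1 of the 12 rose and 7 fell (median -0.28), and the small differences of Rnf2 and Kdm6b were among those that changed sign. Of 10 other upstream regulators, 2 rose and 6 fell, with Klf4 at 0.82 and Mycn at -0.89, and under that scaling 5 rose and 4 fell.

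At 20% oxygen the Hif1a KO label went with fewer calls: 12.9% of all genes rose and 9.55% fell. Of the p53 axis, 7 of 13 rose and 1 fell (median 0.23), with Ccng1 at 0.58 ± 0.06 (limma adjusted p = 1.5e-05) and Phlda3 at 0.66 ± 0.10 (adjusted p = 1.9e-04). Of the proliferation genes none rose and 2 of 9 fell (median -0.10), and of the Polycomb regulators, Kdm6b included in the list, none rose and 4 of 12 fell (median -0.14), with Bmi1 at -0.36 ± 0.06 (adjusted p = 4.5e-04). Ccnd1 was again higher (0.69 ± 0.10, adjusted p = 6.6e-05).

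With the Top1mt KO label, 25.2% of all genes rose and 33.2% fell, and 9 of 9 proliferation genes fell (median -0.57), with Pcna at -0.89 ± 0.06 (limma adjusted p = 3.4e-10), and 8 of 11 pocket protein and E2F genes fell and 2 rose (median -0.48), with E2f1 at -0.84 ± 0.05 (adjusted p = 5.5e-11). Cdk6 rose by 0.90 ± 0.08 (adjusted p = 1.6e-08) and Cdk1 fell by 0.47. Of the p53 axis 6 of 13 rose and 2 fell (median 0.23), with Phlda3 at 0.77 ± 0.10 (adjusted p = 3.1e-06) and Mdm4, an inhibitor of p53, at -0.61 ± 0.06 (adjusted p = 5.8e-08). Of the Polycomb regulators 1 of 12 rose and 8 fell, Kdm6b among them (median -0.18), with Bmi1 at -0.71 ± 0.06 (adjusted p = 1.5e-08). Of the ligase genes 7 of 9 fell and none rose (median -0.31).

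In DBA/2, 31.8% of all genes rose at 1% oxygen and 25.5% fell. Of 9 cyclins 7 rose and 2 fell (median 0.22), with the G1 to S cyclin genes Ccne1 (1.05 ± 0.09, limma adjusted p = 1.8e-08) and Ccne2 (0.68 ± 0.09, adjusted p = 4.3e-06) up and Ccnd2 down (-0.69 ± 0.05, adjusted p = 6.7e-10). Of 9 proliferation genes 3 rose and 6 fell (median -0.16), with Mki67 at 0.37 ± 0.06 and Mcm5 at -0.28 ± 0.04. Of 12 listed Polycomb regulators 8 rose and 2 fell (median 0.31), with the methyltransferase gene Ezh2 at 0.81 ± 0.07 (adjusted p = 2.1e-08) and, among those that fell, the demethylase gene Kdm6b at -0.72 ± 0.05 (adjusted p = 5.3e-10). Of the p53 axis 4 of 13 rose and 3 fell (median -0.00), with Plk2 at 0.78 ± 0.07 and Trp53 itself at -0.48 ± 0.05. Of 9 genes listed from the imprinted domain around Cdkn1c, 7 were tested, and in DBA/2 6 of the 7 rose and none fell (median 0.52), with Ascl2 at 1.83 ± 0.12 (adjusted p = 2.8e-10) and Cd81 at 0.70 ± 0.08 (adjusted p = 2.2e-07). In Hif1a wild type, where Cdkn1c rose by 0.38, 2 of these 7 rose and 3 fell (median -0.07), with Phlda2 at -1.28 ± 0.11 (adjusted p = 1.2e-08). The Top1mt KO label gave 5 of these 7 up and 1 down (median 0.48), where Cdkn1c gave -0.03. The Hif1a KO label at 1% gave 4 up and 3 down (median 0.25), where Cdkn1c gave -0.10. Over all genes, 25.2% rose and 33.2% fell with the Top1mt KO label, and 28.3% and 49.1% with the Hif1a KO label at 1%.

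In Hif1a wild type at 1% oxygen, most cyclins did not pass the threshold: none of 9 rose and 2 fell, Ccnd1 (-1.39 ± 0.10, limma adjusted p = 4.1e-10) and Ccnd2 (-0.78 ± 0.05, adjusted p = 1.2e-10), and under median-of-ratios scaling 3 rose as well. Of the proliferation genes none rose and 6 of 9 fell (median -0.19), and under that scaling 1 rose and 3 fell. Of the Polycomb regulators 1 of 12 rose and 7 fell (median -0.23), where 18.4% of all genes rose and 34.6% fell. The p53 axis had 9 of 13 up and 1 down (median 0.25), with Btg2 at 1.21 ± 0.07 (adjusted p = 1.9e-11) and Gadd45a at 0.91 ± 0.08 (adjusted p = 1.6e-08). In libraries labelled Hif1a KO, where 25.2% of all genes rose and 54.7% fell, 10 of 13 rose and 2 fell at 1% oxygen (median 0.85), with Plk2 at 1.87 ± 0.07 (adjusted p = 2.9e-14), Gadd45a at 1.76 ± 0.08 (adjusted p = 2.1e-13) and Btg2 at 1.75 ± 0.07 (adjusted p = 2.2e-14), while 9 of 9 proliferation genes fell (median -1.04), with Mcm5 at -1.37 ± 0.04 (adjusted p = 1.6e-15). Over all genes the median there was -0.29, and of all genes called 31.6% were higher in CPM and 53% with median-of-ratios scaling. In Hif1a wild type these shares were 34.7% and 49.6%, and in the difference of the oxygen responses between the lines 32.9% and 51.5%.

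**Figure D5:**
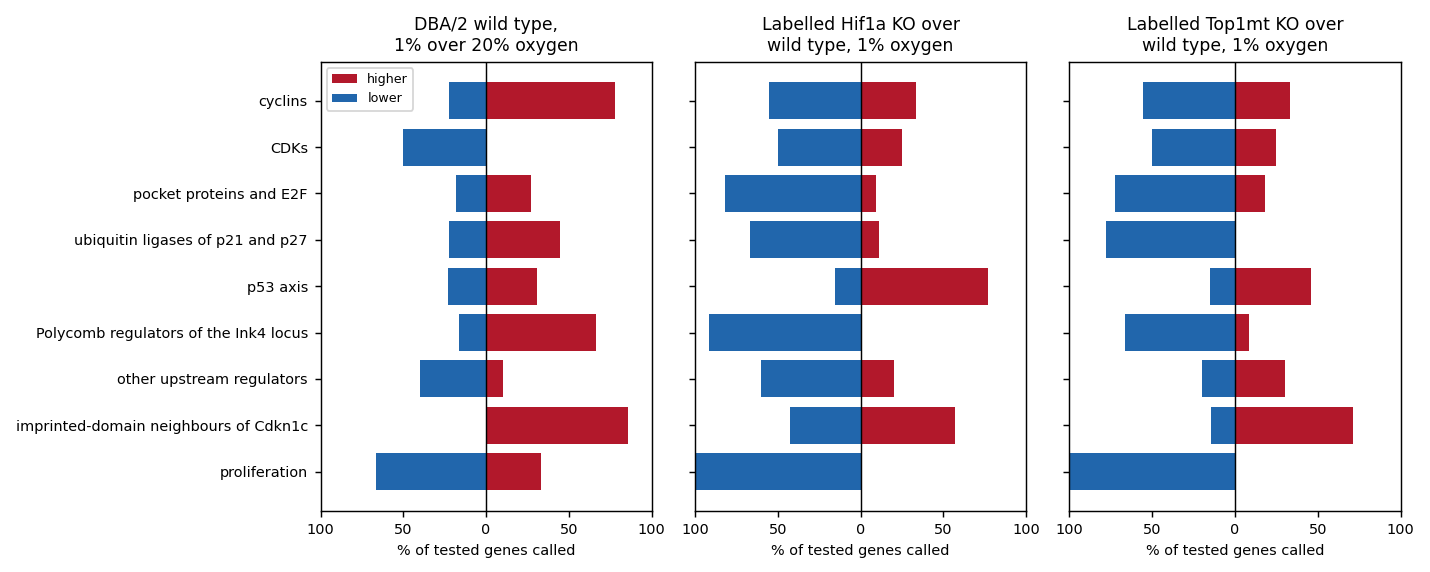
Percent of the tested genes of each list called higher (red, right) or lower (blue, left) at a limma adjusted p under 0.05, for 1% over 20% oxygen in DBA/2 and for libraries labelled KO over wild type at 1% oxygen in the Hif1a and Top1mt lines. Proliferation genes were lower in 9 of 9 cases with both KO labels, whereas in DBA/2 3 rose and 6 fell.

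Across the 16 libraries, the CDK inhibitors fell into sets of unlike pattern. The Pearson correlation of log2(CPM + 1) was 0.89 between Cdkn2a and Cdkn2b, 0.88 between Cdkn1a and Cdkn2a and 0.81 between Cdkn1a and Cdkn2b. It was 0.86 between Cdkn1b and Cdkn2d, 0.78 between Cdkn1c and Cdkn2d and 0.74 between Cdkn1b and Cdkn1c, and -0.25 between Cdkn1b and Cdkn2b. Cdkn2c reached no more than 0.21 with any other member. These values describe 16 libraries that share 8 groups and 3 lines. Among 11791 other genes with a mean of at least 5 CPM, the 3 most like Cdkn1a were Gja1 (0.99), Sec23a (0.99) and Efnb2 (0.99), and the 3 most like Cdkn2b were Steap2 (0.99), Cers2 (0.99) and Elk3 (0.98). Tmbim6 and BC029722 (0.97 each) were most like Cdkn2a, and those most like Cdkn1c were Ankrd37, Muc2 and Pfkp (0.97 each). Foxj2 (0.95), Scn8a (0.94) and Rnf217 (0.94) were most like Cdkn1b, and Pld2, Sncb and Igf2bp2 (0.96 each) most like Cdkn2d. Cdkn2c, the member with the fewest reads, had no gene above the 0.87 of Mertk, which was followed by Zfp507 (0.83) and Wwp1 (0.81).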

How the data were processed

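RNA from 16 libraries of mouse germline stem cell cultures was measured by RNA sequencing. The authors deposited 1 table of CPM values, reads scaled to a common library total, for protein-coding genes, and each column sums to 1e+06, so values are relative to all reads on these genes. Per the submitters' processing notes, the tools were cutadapt 1.16, STAR 2.6.0c, HTSeq 0.11.2 and DESeq2 1.22.2, with the mm10 build. Per the labels' protocols, libraries were made with a TruSeq stranded mRNA kit.

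The deposited CPM values are whole multiples of 1 read: 100% came out whole within 0.01, so reads and depth (11942104 to 25659895) were recovered. A count of 0 allows up to 3 reads, or 0.117 to 0.251 CPM, and such limits cover counting error only. Groups came from the labels. Comparisons were fitted to log2(CPM + 1), which understates changes of low genes, with limma 3.58.1 (R 4.3.3). Each fit used all 16 libraries, 1 mean per group and a trended variance. The 14841 genes with at least 1 CPM in at least 2 libraries were tested, and Benjamini-Hochberg adjusted p was taken over all of them, with calls under 0.05. The 11 comparisons share libraries: the wild type groups serve in several, so their results are not independent. Fits were tested on simulated data for oxygen in DBA/2 only, with fewer changed genes than were called here. Alternatives were a pseudocount of 0.1, no filter, median-of-ratios scaling, edgeR 4.0.16 and DESeq2 1.42.0 on recovered reads, a replicate block, the compared libraries alone, and leaving out each library. Levels between genes were compared per kb of GENCODE exon length. Correlations, marker sums and figures used Python 3.11.15. From each list, up to 4 genes with the smallest adjusted p in a comparison were named. Rnf2 and Kdm6b, named for a change of sign, were chosen after their values were seen. For each member, the 3 genes most like it by Pearson correlation were named, except 1 that is not reported here. The members and lists were chosen with earlier results of these data known.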

Additional observations from a re-analysis of the deposited data

Results flagged for a closer look

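In 8 results the response to 1% oxygen differed between 2 groups by a test of the difference itself (limma, adjusted over all 14841 genes). Between libraries labelled Hif1a KO and wild type, the response was larger in libraries labelled KO by 0.68 for Cdkn1a, 0.60 for Cdkn2a, 0.49 for Cdkn2b, 0.48 for Cdkn2d and 0.44 for Cdkn1b on the log2 scale. Between the wild type cells of the Hif1a line and DBA/2, it differed by 1.05 for Cdkn1a, -0.90 for Cdkn1c and 0.32 for Cdkn2a. Over all genes, 58% passed the test of the label and 46% that of the line. Groups of 2 libraries are too small to flag a single library.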

How the results depend on the processing

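In the alternatives other than leaving out each library, 483 values kept their direction and side of the threshold. There 17 lost a call, 12 gained one and 27 changed sign. The fits on the compared libraries alone are among these. With 1 library left out, 287 stayed, 45 lost a call, 8 gained one and 24 changed sign. The calls kept in every run include Cdkn1c for oxygen in DBA/2, Cdkn1a and Cdkn1c in Hif1a wild type, all 6 in libraries labelled Hif1a KO, Cdkn1a, Cdkn2a and Cdkn2b for the KO labels at 1% oxygen, and Cdkn1a and Cdkn2b for the Hif1a KO label at 20%. For that label at 20%, 5 members were called, against 3 with no filter, 3 with edgeR and 3 with DESeq2, and 2 to 3 with 1 library left out, where 1506 to 2956 genes in all were called in place of 3329. With 1 library left out, 3 to 5 members (in place of 6) were called for oxygen in DBA/2 and 2 to 5 for the interaction. The low values came without DBA/2 at 20% replicate 2 or at 1% replicate 1 for DBA/2, without labelled KO at 20% replicate 1 for the interaction, and for the label at 20% without labelled KO at 20% replicate 2 (2 members) or Hif1a wild type at 20% replicate 1 (1506 genes). The cause was not tested.

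Small differences changed sign under median-of-ratios scaling, edgeR and DESeq2, given in that order. For oxygen in libraries labelled Hif1a KO, Cdkn2c gave 0.16, 0.20 and 0.23. For the Hif1a KO label at 1%, Cdkn1c gave 0.18, 0.13 and 0.17 and Cdkn2c 0.072, 0.063 and 0.099. For the Top1mt KO label, Cdkn1c gave 0.021, 0.026 and 0.022 and Cdkn2d 0.037, 0.046 and 0.042. For the oxygen response of the Hif1a line minus DBA/2, Cdkn2b gave 0.086, 0.11 and 0.099. For Hif1a wild type over C57BL/6, Cdkn2a gave 0.030, 0.045 and 0.041, Cdkn2b 0.054, 0.060 and 0.057, and Cdkn2c 0.017, 0.028 and 0.025. Relative to depth, the size factors were 0.807 and 0.814 in libraries labelled Hif1a KO at 1% and 0.981 to 1.09 in the others.

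With 1 library left out, these ranges crossed 0. For oxygen, Cdkn2b in DBA/2 gave -0.12 to 0.28, and in Hif1a wild type Cdkn1b gave -0.0068 to 0.14, Cdkn2a -0.067 to 0.23, Cdkn2b -0.018 to 0.11 and Cdkn2d -0.047 to 0.086. For the Hif1a KO label at 1%, Cdkn1b gave -0.0045 to 0.13 and Cdkn1c -0.25 to 0.064. For the Top1mt KO label, Cdkn1c gave -0.093 to 0.026 and Cdkn2d -0.17 to 0.14. For the oxygen response of the Hif1a line minus DBA/2, Cdkn2b gave -0.23 to 0.16. Between wild type lines, Cdkn2d gave -0.15 to 0.072 for the Hif1a line over DBA/2 at 20%, Cdkn2c -0.016 to 0.063 for C57BL/6 over DBA/2, and, for Hif1a wild type over C57BL/6, Cdkn2a -0.18 to 0.12, Cdkn2b -0.066 to 0.059 and Cdkn2c -0.062 to 0.0088.

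Whether replicate numbers pair the samples could not be settled with 2 libraries per group. Deviations of same-numbered libraries from their group means correlated at 0.15 in DBA/2, 0.07 in the Top1mt line and -0.06 to 0.27 in the Hif1a line. Over all genes, a replicate block raised the calls in every comparison, from 3329 to 3804 for the Hif1a KO label at 20% oxygen. A replicate block added 2 member calls, Cdkn2d for the difference of oxygen responses between the lines (-0.38, adjusted p = 0.036) and Cdkn1a for Hif1a wild type over DBA/2 at 20% (-0.21, adjusted p = 0.019), and ended none. With 2 libraries per group, and 26 to 65 reads for Cdkn2c, small differences of the low members may have gone undetected at this depth.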
